A study of Mus musculus with 4 samples.

Results

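The genes described here are the longest of the mouse genome, those with at least 1 annotated transcript that runs for 500 kb or more from its first to its last base. They were selected on that span alone, from the transcript annotation deposited with the study, on chromosomes 1 to 19 of the mm10 build. A total of 200 gene symbols of 24909 met the rule, which is 0.803% of all symbols, and 194 of them had a protein-coding transcript as their longest. Among all 19713 symbols with a coding longest transcript those 194 made up 0.984%. They covered 163 Mb of the 995 Mb that lay in any annotated gene, or 16.4%, and 110 lay on the plus and 90 on the minus strand. Because span chose them, their spans are given as a description and support no comparison.

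The study profiled RNA polymerase I, the enzyme that transcribes ribosomal DNA, by CUT&Tag, in which an antibody-guided transposase tags DNA beside the bound protein. The cells were C64 mouse embryonic stem cells. There were 4 libraries: 2 controls and 2 from cells exposed to auxin at 500 nM for 6 h. The treatment label marks the controls as untreated, although the protocol text of each library also describes the auxin treatment. The labels name neither a degron-tagged protein, nor any other allele, nor whether replicates were separate cultures. The table analysed here is the annotation of 50727 transcripts and holds no value for any library, so all results below are about gene structure and no occupancy is compared between the groups.

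In a gene of this size almost everything transcribed is intron, which is spliced out before the messenger RNA leaves the nucleus, so length and coding content are separate properties. RNA polymerase II needs hours to cross such a gene, and very long genes of the brain are known to code for cell adhesion proteins, channels and receptors of the synapse. Many of them use several promoters, so that a start deep inside the gene gives a shorter transcript and, in some genes, a shortened protein. Several also lie at common fragile sites, chromosome regions that break under replication stress.

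Start sites mark the ends of the transcripts counted below, and the DNA just upstream of them is shown here for 5 genes that have both an outer start and a start far inside. Each window is the 200 bases before the start site, 5′ to 3′ on the strand of the gene, from RefSeq on GRCm38.p6 (the assembly called mm10), and the capitals mark each CG pair. CG-rich windows are typical of promoters that are active in many cell types, whereas CG-poor windows are common at tissue-restricted starts. Ptprg codes for a receptor tyrosine phosphatase, Cntnap2 for a neurexin-like adhesion protein of myelinated axons, B3galt1 for a galactosyltransferase of the Golgi, Nrxn3 for a presynaptic neurexin, and Foxp1 for a forkhead transcription factor. Foxp1 was added after its values were seen, as a gene in which the inner window has more CG pairs.
Ptprg outer (chr14:11553353-11553552, plus strand): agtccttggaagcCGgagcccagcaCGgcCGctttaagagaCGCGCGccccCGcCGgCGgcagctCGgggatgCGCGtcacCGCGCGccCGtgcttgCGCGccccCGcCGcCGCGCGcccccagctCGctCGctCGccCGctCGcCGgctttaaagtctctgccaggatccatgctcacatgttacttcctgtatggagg
Ptprg inner (chr14:12189743-12189942, plus strand): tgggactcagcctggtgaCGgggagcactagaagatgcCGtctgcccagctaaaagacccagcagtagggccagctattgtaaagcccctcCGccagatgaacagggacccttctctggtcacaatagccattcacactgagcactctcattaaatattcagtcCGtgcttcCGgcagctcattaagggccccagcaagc
Cntnap2 outer (chr6:45059861-45060060, plus strand): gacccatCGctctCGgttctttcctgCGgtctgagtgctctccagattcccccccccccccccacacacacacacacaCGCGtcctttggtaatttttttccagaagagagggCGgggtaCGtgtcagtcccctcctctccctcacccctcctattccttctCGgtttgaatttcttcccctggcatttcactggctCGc
Cntnap2 inner (chr6:47244196-47244395, plus strand): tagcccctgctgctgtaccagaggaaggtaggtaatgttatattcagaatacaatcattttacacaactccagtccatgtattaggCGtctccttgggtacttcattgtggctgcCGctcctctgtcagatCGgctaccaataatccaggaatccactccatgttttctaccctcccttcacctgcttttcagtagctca
B3galt1 outer (chr2:67565489-67565688, plus strand): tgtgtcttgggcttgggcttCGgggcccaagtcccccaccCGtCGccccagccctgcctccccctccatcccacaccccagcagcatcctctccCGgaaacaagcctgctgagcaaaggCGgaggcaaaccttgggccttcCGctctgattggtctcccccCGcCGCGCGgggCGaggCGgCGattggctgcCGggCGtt
B3galt1 inner (chr2:68104472-68104671, plus strand): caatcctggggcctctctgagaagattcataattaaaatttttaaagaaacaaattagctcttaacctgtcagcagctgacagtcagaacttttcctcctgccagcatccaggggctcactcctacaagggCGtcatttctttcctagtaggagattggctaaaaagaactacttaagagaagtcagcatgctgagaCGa
Nrxn3 outer (chr12:88794304-88794503, plus strand): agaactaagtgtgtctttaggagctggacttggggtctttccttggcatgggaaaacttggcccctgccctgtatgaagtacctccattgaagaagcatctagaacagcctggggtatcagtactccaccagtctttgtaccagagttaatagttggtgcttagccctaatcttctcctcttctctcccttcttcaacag
Nrxn3 inner (chr12:89812283-89812482, plus strand): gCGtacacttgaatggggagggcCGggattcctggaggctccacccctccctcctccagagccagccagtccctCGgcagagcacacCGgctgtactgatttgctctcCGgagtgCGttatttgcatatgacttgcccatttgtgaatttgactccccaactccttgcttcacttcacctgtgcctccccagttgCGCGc
Foxp1 outer (chr6:99520994-99521193, minus strand): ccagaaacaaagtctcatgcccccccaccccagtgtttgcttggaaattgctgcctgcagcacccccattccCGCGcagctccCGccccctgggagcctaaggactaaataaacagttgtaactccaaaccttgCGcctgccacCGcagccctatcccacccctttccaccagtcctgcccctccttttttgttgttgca
Foxp1 inner (chr6:99028299-99028498, minus strand): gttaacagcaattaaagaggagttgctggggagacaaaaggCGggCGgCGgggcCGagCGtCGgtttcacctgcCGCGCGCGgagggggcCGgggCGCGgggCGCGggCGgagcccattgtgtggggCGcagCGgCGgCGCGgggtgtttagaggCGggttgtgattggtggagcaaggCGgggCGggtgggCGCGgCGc

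The outer Ptprg window holds 29 CG pairs and the inner one, 636390 bases downstream, holds 5. In Cntnap2 the counts are 9 and 3, with 2184335 bases between the starts. In B3galt1 they are 15 and 2. Nrxn3 goes the other way, with 0 CG pairs before its outer start and 8 before the start that lies 1017979 bases further in. Its outer window ends in a pyrimidine-rich stretch and cag, as introns do, and whether a promoter lies there was not tested. Foxp1 also goes the other way, with 5 and 27. The values for all starts are given with the internal starts below.

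The longest gene was Ptprd, at chr4:75941239-78211742 on the minus strand, a receptor tyrosine phosphatase that organises synapses, with a span of 2270504 bases. Cntnap2 on the plus strand, at chr6:45060061-47301388, followed with 2241328 bases. Lsamp, an immunoglobulin-type adhesion protein of the limbic system, at chr16:39984364-42181679, spanned 2197316 bases. The endocytic receptor gene Lrp1b, at chr2:40596773-42653598, was the last of the 4 genes over 2 Mb, with 2056826 bases. Each of these 4 codes for a cell surface protein.

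The next longest were more mixed in function. Macrod2, an enzyme that removes ADP-ribose from proteins, spanned 1994621 bases at chr2:140395430-142390050. Csmd1, a large membrane protein with CUB and sushi domains, spanned 1642841 bases at chr8:15892545-17535385. Fhit, a small diadenosine hydrolase known from a common fragile site, spanned 1611942 bases at chr14:9550094-11162035. The remaining genes of the 10 longest were the alpha-T catenin Ctnna3 (1573570 bases), the axon guidance receptor Robo2 (1554988 bases) and Nrxn3 (1540432 bases).

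Most members were far shorter than these. The median span was 721525.5 bases, 47 members reached 1 Mb, 11 reached 1.5 Mb, and 70 lay under 600 kb. Just inside the threshold were Edil3 with 501754 bases, Dock1 with 502961, Car10 with 503386, Stpg2 with 504407 and L3mbtl4 with 506290. Just outside were Lrrc7 with 494576, Ank3 with 493729, Abca13 with 492318, Gabrb1 with 491652 and Dnm3 with 490733. The widest step between neighbours among these 10 genes lay at the threshold, from 494576 to 501754 bases. The threshold itself was a fixed rule and was not read from the spacing of the genes. By chromosome, the share of symbols that were members ran from 0.311% on chromosome 11 (6 of 1931) to 1.54% on chromosome 14 (15 of 977).

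**Figure D1:**
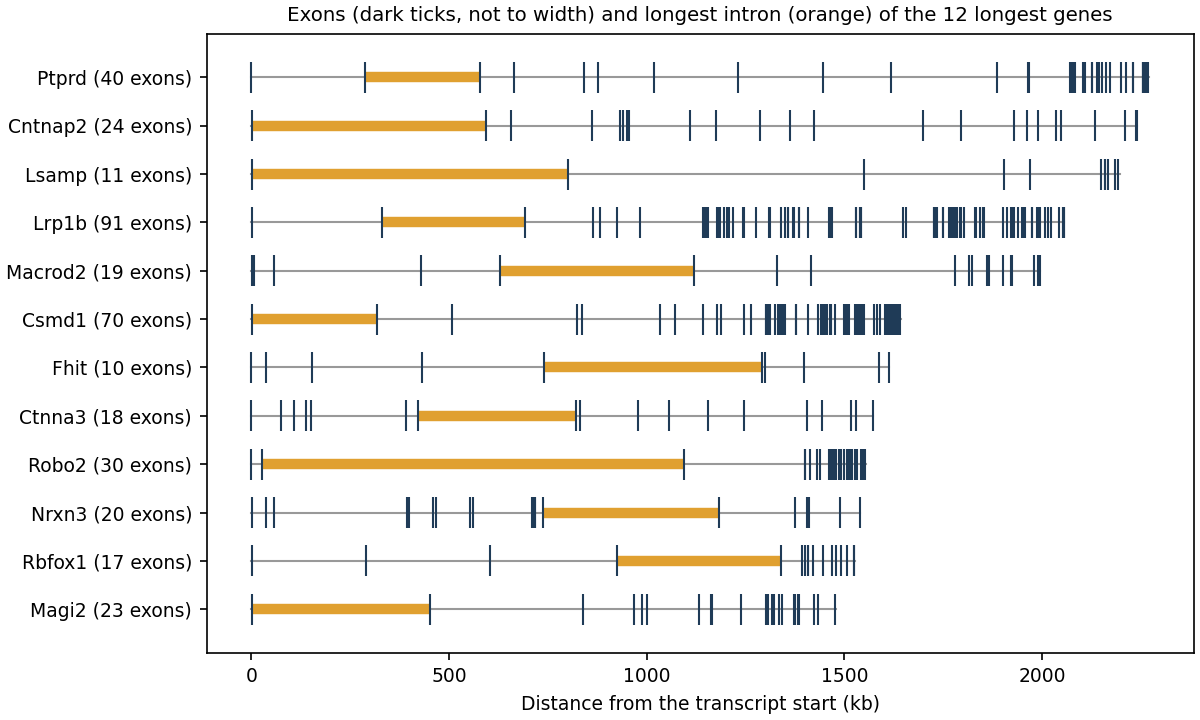
Exon positions (dark ticks) and the longest intron (orange bar) of the 12 longest genes, drawn to scale in kb from the transcript start, with exon numbers beside the names. The longest intron opens the gene in Cntnap2, Lsamp, Csmd1 and Magi2, lies in the middle in Fhit and Macrod2, and exons crowd toward the 3′ end in Robo2 and Rbfox1.

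Members had few more exons than the coding genes next below them in span. The longest transcripts of the 200 genes had a median of 18 exons, with quartiles of 11 and 26.25, and a median summed exon length of 5757.5 bases. The 1976 coding genes of 100 kb to under 500 kb had medians of 16 exons and 5003.5 bases, and the 10316 coding genes of 10 kb to under 100 kb had 10 exons and 2995 bases. Between the middle class and the members the median span rose from 160600 to 721525.5 bases while the median internal exon went from 127 to 128 bases. These 2 classes are used for all comparisons below, each gene by its longest transcript, and differences between the classes are descriptions without a test.

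Introns made up a median of 99.3% of the span of a member, against 97.1% in the middle class and 89.4% in the short one. Fhit had the highest share, 99.9%, with 1056 exon bases in 10 exons. Syne1, which codes for the giant nuclear envelope protein nesprin-1, had the lowest of all members, 94.6%, with 28647 exon bases. Summed over the 200 genes, exons took 1333.5 kb of 165.8 Mb, or 0.804%.

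Exon number and span were nearly unrelated within the members (Spearman's rho -0.04 over 200 genes, a description across genes, which are not independent replicates). Genes with more exons tended to have a shorter longest intron (rho -0.47). Snhg14, a non-coding host transcript of the imprinted Prader-Willi region, had 172 exons in 1177441 bases, and Syne1 had 146 in 530501 bases. The ryanodine receptors Ryr2 and Ryr3, calcium release channels of the endoplasmic reticulum, had 105 and 104 exons in 553843 and 585704 bases. Lrp1b had 91. The longest intron was 143764 bases in Snhg14, 85079 in Syne1, 160396 in Ryr2 and 188244 in Ryr3, all below the median of 253190.5 over members, while Lrp1b had one of 362815.

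At the other end stood genes with hardly any exons. Hs6st3, a heparan sulfate 6-O-sulfotransferase, had 2 exons and 1784 exon bases in 731551 bases. Lrrtm4, a postsynaptic leucine-rich repeat protein that binds heparan sulfate, had 3 exons in 791267 bases. Fam155a, a subunit of the sodium leak channel complex, and Lhfpl3, a tetraspan membrane protein, had 4 each, as did Zfp804b and the 3 model symbols Gm37013, Gm38666 and Gm38667. Hs6st3 and Snhg14 thus differ in exon number from 2 to 172 with spans of 731551 and 1177441 bases.

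**Figure D2:**
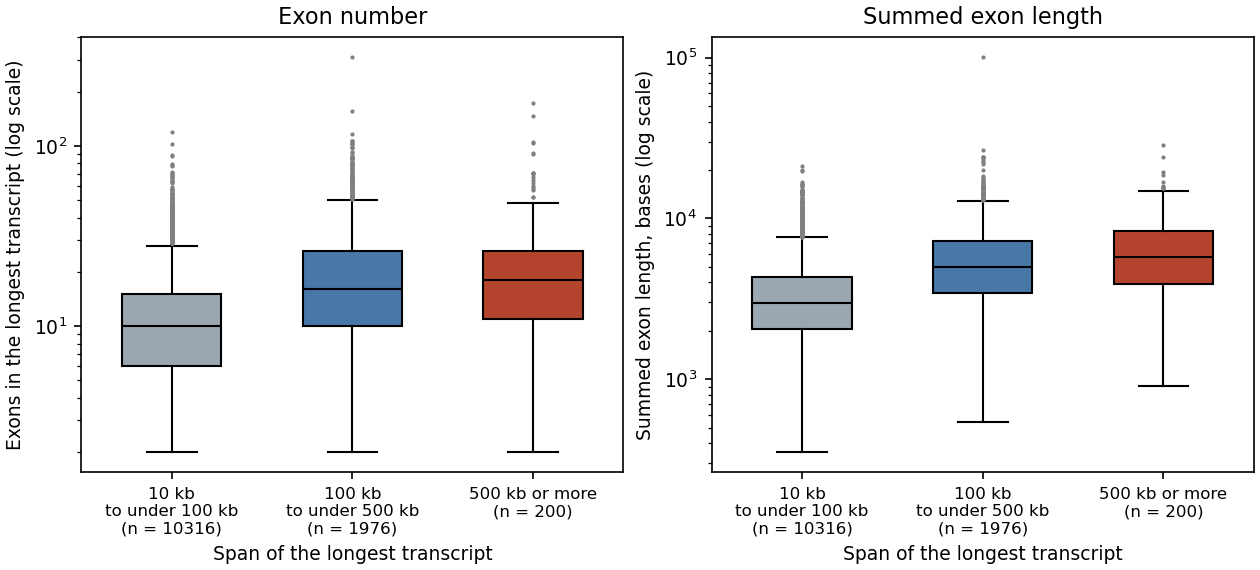
Exon number (left) and summed exon length in bases (right) of the longest transcript, on log axes, for coding genes of 10 kb to under 100 kb (n = 10316), coding genes of 100 kb to under 500 kb (n = 1976) and the 200 genes of 500 kb or more. Boxes span the quartiles with the median as a line, whiskers reach 1.5 times the box height and dots lie beyond; the medians are 10, 16 and 18 exons.

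A single intron often exceeded the length of most whole genes. The longest intron of a member had a median of 253190.5 bases and ranged from 52729 bases in Skint5, picked out here after its value was seen, to 1067346 bases in Robo2. In the middle class the median was 62124.5 bases and in the short class 9028 bases. Introns of 100 kb or more numbered 458 and occurred in 184 of the 200 members. Of these members Ptprd had the most, 9, and the 47 genes of 1 Mb or more had a median of 4.

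In Robo2, at chr16:73892306-75447293, the 1067346-base intron was the second of 29 and took 68.6% of the gene. Kcnip4, which codes for a calcium-binding partner of A-type potassium channels, had a first intron of 1014880 bases, 89.4% of its 1135402. Asic2, a proton-gated cation channel, had a first intron of 996015 bases, 91.5% of its 1088232. In Lsamp the first intron had 801273 bases and in the synaptic adhesion gene Cadm2 it had 737288 bases, 76.4% of the gene. Lrrtm4 carried 785807 of its bases in its last intron, and the glypican gene Gpc5 had 735947 in its last, the seventh. The first introns of the 3 model symbols, between 848742 and 869870 bases, complete the 10 longest. The longest intron was thus the first in 7 of these 10 genes and the last in 2. The 7 include the 3 model symbols, which share 868072 bases with each other, so their first introns are not separate cases.

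Across all members the longest intron took a median of 29.5% of the span, below the 36.4% and 34.3% of the 2 shorter classes. It exceeded 50% of the span in 47 members (23.5%), against 26.4% of the middle and 25.3% of the short class. A median of 3 introns made up 50% of the intron bases of a member, where the other classes had a median of 2. Intron length was thus spread over several introns, and the median intron within a gene had a median of 14923 bases in members, 3663.5 in the middle class and 1702 in the short class.

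The longest intron was the first in 79 members (39.5%), the second in 37 and the third in 25, and it was the last in 7. First and second together gave 58.0%, against 63.0% in the middle and 61.1% in the short class. With the gene cut into 3 equal parts, the centre of the longest intron fell in the 5′ part in 105 members (52.5%), in the middle part in 73 and in the 3′ part in 22 (11%). The middle class had 54.0% and 11% in the 5′ and 3′ parts, close to these shares. The first intron had a median of 126676.5 bases and the last one of 4940 bases. A high intron number need not mean a late place: the longest intron of Nrxn3, of 443336 bases, was the fourteenth of 19 and that of Ctnna3, of 397872 bases, the seventh of 17, and both were centred in the middle part.

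**Figure D3:**
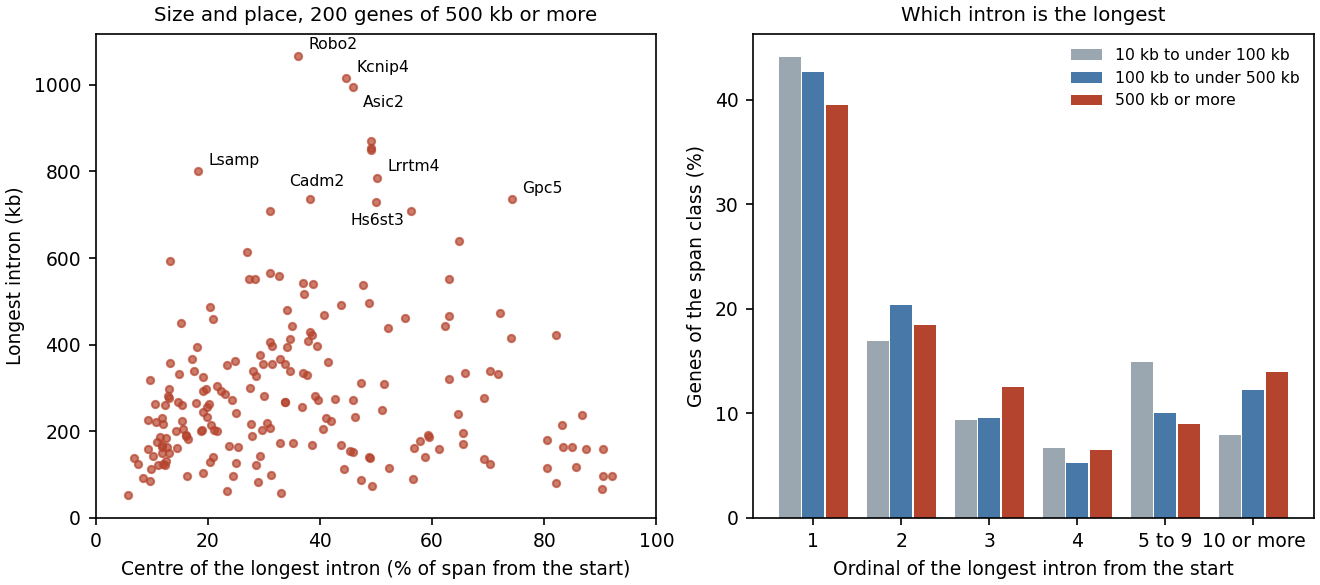
Left: length in kb of the longest intron of each of the 200 genes against the place of its centre as a percentage of the span from the start. Right: percentage of genes in each span class whose longest intron is the first, second and so on; the first intron is the longest in 39.5% of members.

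The coding sequence usually opened close to the start of the transcript, but in some genes it came only after most of the gene. The distance along the DNA from transcript start to coding start had a median of 411 bases over the 194 genes with a coding longest transcript, and it was under 1 kb in 125. It was 100 kb or more in 40 (20.6%), against 7.95% of the middle class, whose genes have less room for such a distance and whose median distance was 484 bases. In Ptprd it was 1886478 bases. In Lrrc4c, the netrin-G ligand NGL-1, coding began 1310862 bases into a gene of 1313496, and in Lingo2, a leucine-rich repeat membrane protein, 1241766 bases into 1245098. Rbfox1, a splicing regulator of neurons and muscle, had 924429 bases of non-coding gene before its coding start. In Lrrc4c and Lingo2 all coding bases thus lie at the 3′ end, after a chain of long introns. The longest intron as such lay before the coding start in 27 of the 194 (13.9%), against 20.6% in the middle class.

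Short transcripts that begin inside the gene were annotated for 45 of the 200 members (22.5%). An internal start here lies at least 10 kb downstream of the outermost one, and a short transcript spans under 50% of the longest. Internal starts of any length occurred in 64 members (32%), with 105 starts in all, and 136 members had none. In the middle class 22.2% had an internal start and 11.7% a short transcript, and in the short class 5.08% and 2.73%. A fixed distance of 10 kb is easier to reach in a longer gene, so these shares are not on an equal footing.

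In all 45 genes at least 1 short transcript was coding, and in 33 the shortest coding one ended at the same base as the longest. The median of that shortest coding transcript was 18.1% of the full span, against 28.2% and 33.2% in the 2 shorter classes. It lay under 10% in 13 genes. The extreme was Mgat4c, an N-acetylglucosaminyltransferase relative, at 17033 bases or 2.40% of 709983, from a start 692950 bases in. Sema6d, a transmembrane semaphorin, had a transcript of 14209 bases (2.46%) with 17 exons, where the longest has 21. Cntnap2 had one of 56993 bases (2.54%) with 4 exons, where the longest has 24, and B3galt1 one of 18211 bases (3.27%) with 2, where the longest has 7.

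How much coding sequence these short transcripts hold differed between genes. In Mgat4c all 1437 coding bases of the longest transcript, and in B3galt1 all 981, were also coding in the short one. In Sema6d the short transcript coded all 2997 coding bases of the longest and had 3093 in all. In Cntnap2 it had 327 coding bases, where the longest has 3999. The first 3 genes thus have their coding sequence within the last 4% of the span, and the outer start adds non-coding exons.

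Further genes with small shares lay between these. Ank2, the membrane scaffold ankyrin-B, had a transcript of 21780 bases (3.77%) with 10 exons, where the longest has 48, and 2802 of 11949 coding bases. In Ptprg it had 52099 bases (7.57%) and 17 exons, 15 of them with both ends as in the longest transcript, which has 30. In Fgf12, an intracellular FGF-related protein that binds sodium channels, it had 49131 bases (8.25%) and 2 exons, neither with both ends as in the longest transcript. Short span and few exons did not always go together, as 15 of the 17 exons of the Sema6d transcript also had the ends of exons of the longest one.

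Nrxn3 shows the pattern with names used in the field, since alpha-neurexins start at the outer end and beta-neurexins inside. Its transcripts have 1540432 bases with 20 exons, 1381546 with 20 and 522453 with 7. In Dlg2, the postsynaptic scaffold PSD-93, transcripts of 1358461, 386853 and 214277 bases had 23, 15 and 11 exons. In other genes the inner transcript shared most exons with the longest, counted where both exon ends were the same. The nuclear receptor Rora shared 9 of the 11 exons of its longest transcript in 98406 of 734461 bases. The calcium channel Cacna1c shared 40 of 48 in 170735 of 609170, and Robo2 26 of 30 in 519520 of 1554988. In these 3 genes the inner transcript also had 1 or 2 exons of its own.

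**Figure D4:**
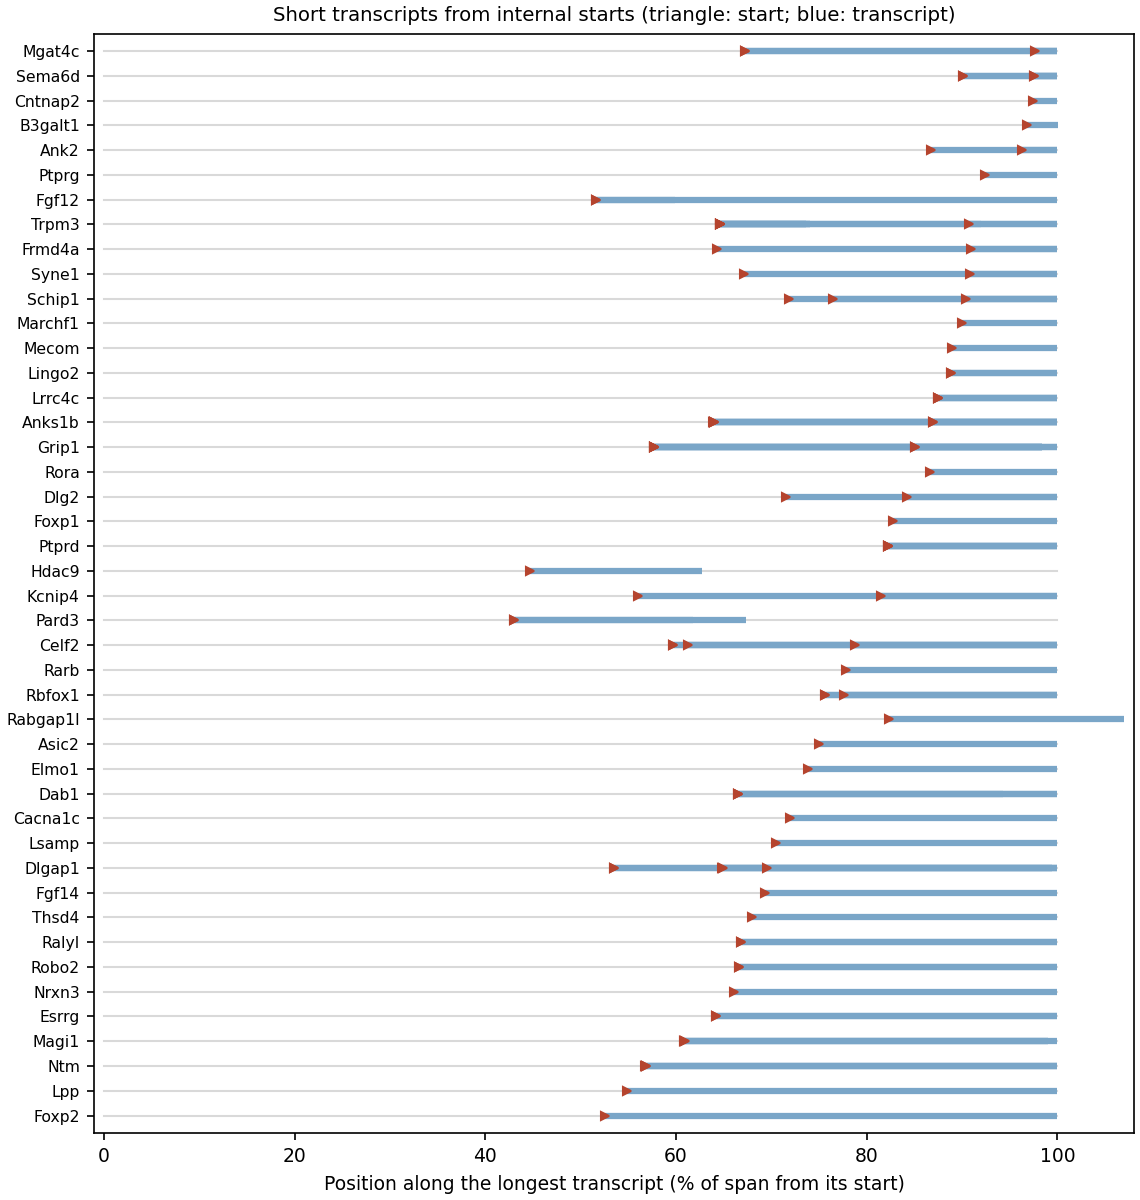
Of the 45 genes with a short transcript from an internal start 44 are drawn, each scaled from the start (0%) to the end (100%) of its longest transcript, with a triangle at each internal start and a blue bar over the transcript, ordered by the shortest coding one. Overlapping bars of 1 gene are drawn together; the shortest coding transcript ends where the longest does in 33 of the 45 genes.

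CG pairs in the 200 bases upstream were more frequent at outer than at internal starts. Windows were at hand for 160 of the 200 members, 257 in all, each at the start of an annotated transcript. The 149 outer starts had a median of 11 CG pairs and a GC content of 63.0%, and 53.7% held at least 10. The 88 internal starts, in 54 genes, had a median of 5 and a GC content of 51.5%, and 22.7% held at least 10. Over all 32851 windows of the table the median was 5, the GC content 53.0% and the share with at least 10 was 34.2%. Starts of 1 gene share a locus, so the windows are not independent.

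Within genes the difference was smaller. In 45 genes an outer start could be set beside the innermost start that had a window. That need not be the innermost annotated start, as in Trpm3, where starts further inside had no window. The outer window had more CG pairs in 25 genes and the inner window in 20, with medians of 7 and 5. Ctnna3 had 31 CG pairs before its outer start and 1 before the innermost, and Ank2 had 19 and 2. In Dlg2 they were 3 and 2, both low. The genes with internal starts thus include both directions, as the printed Ptprg and Foxp1 windows do.

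Of the 200 members, 98 enclosed at least 1 other annotated locus entirely (49.0%), and 309 such nested loci were counted. Of these, 168 lay in the 3 model symbols Gm37013, Gm38666 and Gm38667, which run through the protocadherin gene clusters of chromosome 18 and hold 55 Pcdh symbols, each counted for every host. The 3 overlap each other, with 868072 bases shared by all, and so are 1 region under 3 names. Without them, 141 nested loci lay in 95 of 197 members (48.2%).

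Nested genes were less dense in members than in shorter genes. With every host that overlaps the protocadherin region left out of all classes, members held 0.864 nested loci per Mb, the middle class 1.59 and the short class 2.25. For protein-coding loci the densities were 0.172, 0.408 and 0.461 per Mb. Members here include the 6 with a non-coding longest transcript, among them Snhg14 with 11 nested loci, while the other classes hold coding genes only. With all hosts kept, nested loci came to 1.86, 2.03 and 2.31 per Mb, and the order for protein-coding loci reversed to 1.16, 0.836 and 0.511, so that it rests on leaving that region out. The share of hosts with a nested locus was nevertheless highest in members, 48.2% against 19.8% and 6.70%. Members are also the longest hosts by rule, and whether length accounts for this share was not tested. Of the 141, 62 lay on the strand of the host (44.0%), a share of 43.6% in the middle and 60.9% in the short class.

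By class the 141 loci comprised 62 long non-coding RNAs, 35 miRNAs, 28 protein-coding genes, 9 pseudogenes, 6 snoRNAs and 1 snRNA. They fell within a single intron in 122 cases, and 51 of these (41.8%) were in the longest intron of the host. The longest introns held 35.4% of the intron bases of the 197 members outside the protocadherin region. Outside the protocadherin region the richest host was Snhg14 with 11, of which Snrpn, Snurf, Ipw and the snoRNAs Snord64, Snord116l1 and Snord116l2 are known genes of that imprinted domain. Tenm4, a teneurin adhesion protein, was next with 4.

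The 28 coding genes lay in 25 hosts, 13 on the same and 15 on the opposite strand, and 24 sat inside 1 intron. Several of these form matching pairs. Lrrtm1 and Lrrtm3, leucine-rich repeat synaptic proteins, lie opposite in strand in the longest intron of Ctnna2 (intron 8 of 19) and of Ctnna3 (intron 7 of 17). Mab21l1 lies in Nbea (intron 41 of 57) and Mab21l2 in Lrba (intron 40 of 56), both opposite in strand, and Nbea and Lrba are related BEACH-domain proteins. Insyn2a lies in Dock1 and Insyn2b in Dock2, each in intron 27 of 51 and opposite in strand, where Dock1 and Dock2 are related activators of Rac. In these 3 pairs related genes lie within related hosts. The pairs were noticed after the list of nested genes was seen, and no test was made.

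Other coding guests were single cases, named after their values were seen. Flrt3, an axon guidance ligand, lies in intron 3 of Macrod2, and Lrrn3 lies in intron 4 of Immp2l, which is its longest. Cstf2t, a testis copy of an RNA cleavage factor, lies in intron 3 of Prkg1, also the longest. Gpr52, an orphan receptor, lies in intron 13 of Rabgap1l on the same strand. Iqcj and Schip1 are enclosed by their read-through gene Iqschfp, and Schip1 is itself a member, with 561681 bases.

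Of the 35 nested miRNA genes 28 lay on the strand of the host, in the direction in which an intron can carry them, and 29 matched an entry of the RefSeq miRNA table, which gave 45 mature sequences. The mature sequences below are shown because 2 of them share a seed although their hosts, Lpp and Tenm4, are not of 1 family, and because the last 3 are well-known miRNAs of brain or eye. The capitals mark the seed, bases 2 to 8.
mmu-miR-28a-5p (chr16:24827868-24827889): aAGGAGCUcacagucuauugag
mmu-miR-708-5p (chr7:96249450-96249472): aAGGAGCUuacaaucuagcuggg
mmu-miR-204-5p (chr19:22750610-22750631): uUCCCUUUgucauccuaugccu
mmu-miR-153-3p (chr12:117250860-117250881): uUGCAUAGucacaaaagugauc
mmu-miR-218-5p (chr11:35616840-35616860): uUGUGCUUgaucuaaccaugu

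Mature miR-28a-5p lies in intron 8 of Lpp, which codes for a focal adhesion protein, and miR-708-5p in intron 1 of Tenm4. They were the 2 mature miRNAs of the table with that seed. The remaining ones lie in intron 6 of the cation channel gene Trpm3 (miR-204), intron 19 of the dense-core vesicle phosphatase gene Ptprn2 (miR-153) and intron 14 of the guidance ligand gene Slit3 (miR-218). Intron 2 of Lingo2 holds 3 miRNA genes, Mir873a and Mir876 on its own strand and Mir873b on the other. Lpp was named after its values were seen.

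Function groups were read from 24 lists of 615 symbols, of which 589 had a row in the annotation. Of the 200 members, 128 (64.0%) were in a list. The lists were recalled with long genes in mind, and a list of genes at fragile sites, with members in 20 of the 20 that had a row, was recalled because such genes are long, so none of these shares is independent evidence. Each share may be read beside the 0.984% of all coding symbols.

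Several families of adhesion proteins had high shares. Members were 3 of 5 neurexin and neuroligin genes (60.0%), among them Nrxn3 and Nlgn1, families that pair across the cleft. They were 6 of 13 contactins and contactin-associated proteins (46.2%), with Cntnap2, Cntn5 at 1243885 bases and Cntn4 at 1022469 ahead. They were 9 of 22 IgLON and other immunoglobulin adhesion genes (40.9%), led by Lsamp, Opcml at 1134112, Sdk1 at 972258 and Ntm at 968521 bases. Teneurins and latrophilins gave 4 of 10 (40.0%), with Tenm2 at 937586 and Adgrl3 at 804382 bases. Receptor tyrosine phosphatases gave 6 of 20 (30.0%), from Ptprd down to Ptprk at 522578.

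The shares of further adhesion and guidance families varied. The cadherins and catenins had 6 of 38 (15.8%), among them Ctnna3, Ctnna2 and the lipid-anchored cadherin Cdh13 at 1041317 bases. The leucine-rich repeat organisers had 3 of 25 (12.0%), Lrrc4c, Lingo2 and Lrrtm4, while 17 of that list were under 100 kb. Axon guidance gave 6 of 42 (14.3%), Robo2, the netrin receptor Dcc at 1097438 bases, Epha6, Slit3, Sema6d and Unc5d. The low-density lipoprotein receptor and CUB-sushi families gave 4 of 12 (33.3%), Lrp1b and all 3 Csmd genes of the list.

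Scaffolds that hold receptors and vesicles in place gave 11 of 35 (31.4%), with Magi2 at 1477746, Dlg2 at 1358461 and the polarity gene Pard3b at 1003461 bases. The list of growth factor receptors and neuregulins gave 7 of 28 (25.0%), among them the neuregulin Nrg3 at 1104138 and its receptor Erbb4 at 1075874 bases. Both partners of that ligand and receptor pair thus exceed 1 Mb. The 7 also include Alk, Sorcs1, Sorcs3 and the FGF-related Fgf12 and Fgf14, so the name of this list is a loose one. Dystrophin-associated genes gave 3 of 16 (18.8%), led by the sarcoglycan Sgcz at 1138955. Glypicans and heparan sulfate enzymes gave 3 of 18 (16.7%), Gpc5, Gpc6 and Hs6st3.

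Channels and receptors gave the following shares. Potassium channels and partners gave 6 of 33 (18.2%), of which Kcnip4, Dpp6 at 910144 and Dpp10 at 713422 bases are auxiliary subunits of A-type channels, and Kcnd2 at 514460 is their pore. Voltage-gated calcium and sodium channels gave 2 of 27 (7.41%), Cacna2d3 and Cacna1c, and no sodium channel of the list was a member. Ionotropic glutamate receptors gave 3 of 17 (17.6%), among them Grid1 at 760980 bases and the kainate receptor Grik2 at 695075. GABA, glycine and acetylcholine receptor channels gave 1 of 20 (5.0%), Gabrg3 at 670753. Metabotropic and other G protein-coupled receptors gave 4 of 28 (14.3%), Grm7, Grm8, Grm5 and Adgrv1. Other channels and transporters gave 4 of 29 (13.8%), Trpm3, Ryr3, Slc9a9 and Ryr2.

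Intracellular regulators were also represented. Phosphodiesterases and other signalling enzymes gave 10 of 39 (25.6%). The longest were Pde4d, a cyclic AMP phosphodiesterase, at 1301793 bases, Agbl4 at 1266627 and the cyclic GMP-dependent kinase Prkg1 at 1200547. Transcription and chromatin factors gave 13 of 65 (20.0%), with Auts2 at 1105888, the deacetylase Hdac9 at 869514 and Npas3 at 823741 bases. RNA-binding proteins gave 4 of 25 (16.0%), Rbfox1, Rbms3, Celf2 and Adarb2. Pluripotency factors, which embryonic stem cells are known to express, gave 0 of 12, with a median span of 9544 bases. With members at 0.984% of all coding symbols, a list of 12 genes would mostly hold none, so this count does not set the list apart.

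**Figure D5:**
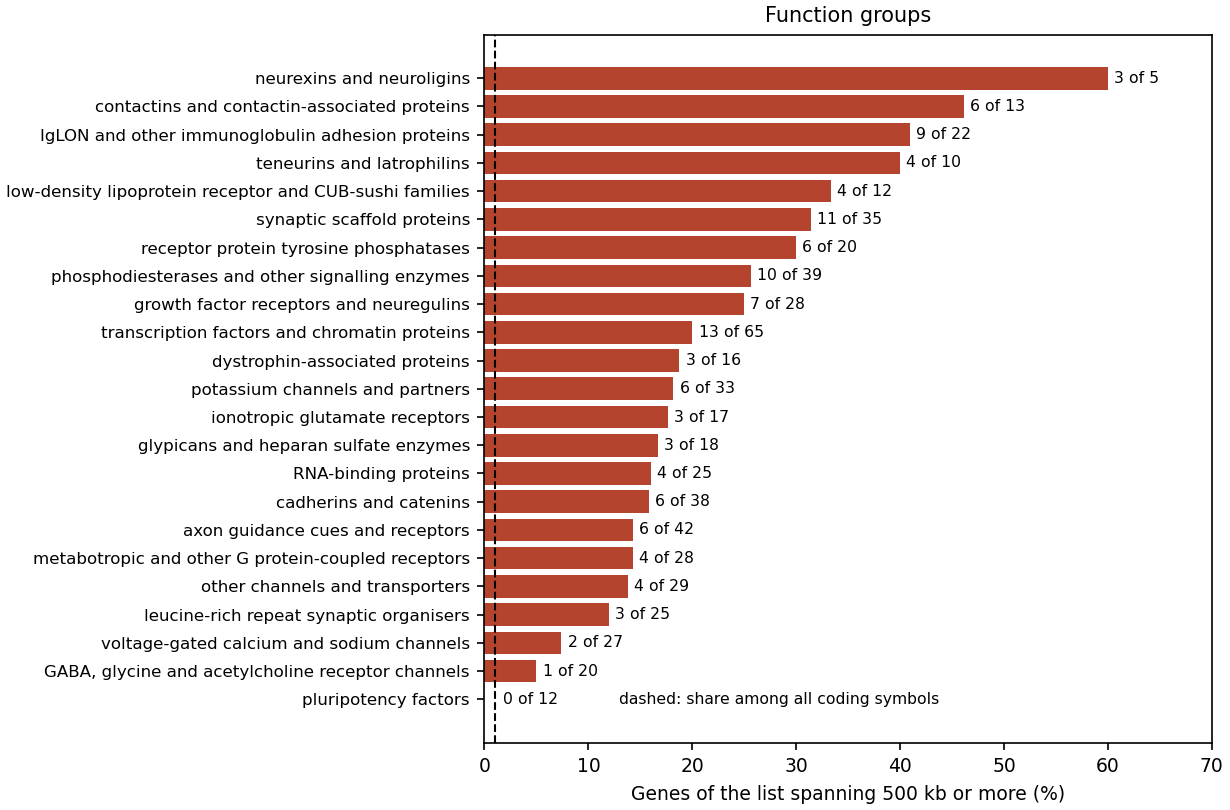
Percentage of the genes of each function list that span 500 kb or more, with the counts beside the bars and the dashed line at 0.984%, the share among all coding symbols; the fragile site list is not drawn. Neurexins and neuroligins head the plot at 60.0%, and the pluripotency factors close it at 0 of 12.

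Many long genes had short namesakes with a similar number of exons. In the lists, 83 members shared the stem of their symbol with at least 1 gene of the same list that was under 500 kb, and each was set beside the shortest of these. The ratio of spans exceeds 1 by that choice, with a median of 12.5 and 48 members at 10 or more. Exon number was not part of the choice: the medians were 20 in members and 18 in the short relatives, 57 of 83 pairs differed by at most 3 exons, and 17 had the same number. The member had more exons in 45 pairs and fewer in 21. The 83 pairs used 61 different short relatives, so pairs that share a relative are not independent. A shared stem does not always mean close kinship, as for Ptprd beside Ptprn.

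Cntnap2 had 24 exons in 2241328 bases, and Cntnap1, with 24 as well, spanned 14604 bases, a ratio of 153. Nlgn1 and Nlgn2 had 8 exons each in 910102 and 14662 bases. Gpc6 and Gpc2 had 10 each in 1054233 and 6278 bases. Erbb4 had 27 exons in 1075874 bases and Erbb3 had 28 in 22113. In these pairs the number of exons was kept or nearly so while the span differed from 48.7-fold to 168-fold. The pairs in this paragraph were picked after their values were seen.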

How the data were processed

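The 4 libraries (2 control, 2 auxin) are RNA polymerase I CUT&Tag of C64 cells. FastQC, Bowtie2, bedtools and deepTools are listed, with build mm10, per the submitters' processing notes. What each did, and in which version, is not given in the sources used here. The file deposited by the authors is an annotation in 12-column BED layout. Its score column, as deposited, is 0 in all 50727 rows, and the other deposited columns hold positions and exon blocks. Read counts and depth per library were not analysed here, so no interval or test between control and auxin was made.

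A symbol became a member when a row on chromosomes 1 to 19 had an end minus start of 500000 or more. Structure was read from the longest row. The comparison classes were symbols whose longest row was coding and spanned 10 kb to under 100 kb or 100 kb to under 500 kb. A start lying at least 10 kb downstream of the outermost one was internal, and starts within 1 kb were merged. A nested locus lay wholly within the longest row of its host. Gene classes, promoters and miRNAs came from RefSeq tables of GRCm38.p6, where 200 of 200 members matched by symbol. CG pairs were counted in the 200 bases before a start; 40 members had no window. The members and the lists were chosen with earlier results of these data known, and the comparisons of symbols that share a stem and of exons shared by inner and longest transcripts were added after the annotation had been read.

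Named genes were the 10 longest, the 10 with the longest intron, the 5 with most and the 5 with fewest exons, the 5 with most nested loci, the 5 on each side of the threshold, the 8 with the smallest short transcript, and up to 6 per list and up to 5 non-coding members by span. Tied genes were kept, and genes outside the rule are marked as chosen after their values were seen. A few members the rule names are counted but not reported here by name. Alternatives covered the threshold, the row used, the distance and length that define short transcripts, and the overlap rule. Python 3.11.15, pandas 2.3.3, numpy 2.4.6, scipy 1.17.1 and matplotlib 3.10.9 were used. The transcript and overlap routines were tested on simulated data with 300 gene models and gave 0 wrong values.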

Additional observations from a re-analysis of the deposited data

How the results depend on the processing

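The number of genes followed the threshold: 321 at 400 kb and 47 at 1 Mb, in place of 200. With short transcripts defined as under 25% of the longest, 29 genes had one in place of 45. Genes with a nested locus numbered 46 with loci on the same strand only, 28 with protein-coding loci only and 57 without model gene symbols, in place of 98. At 1 Mb 39 genes were in a function list, in place of 128, but that was 83.0% of 47 genes against 64.0% of 200, and at 400 kb 53.6%. The other 16 of 23 alternatives moved a value by less than 1.5 times. Among them, adding chromosomes X and Y gave 211 genes, using coding rows gave 197, leaving out model symbols gave 194, and leaving out the read-through hosts of the protocadherin region, an alternative chosen after seeing the data, gave 95 genes with a nested locus. No paired analysis was possible because an annotation gives no value per library. The annotation is 1 source without replicates, so an unannotated start, exon or nested gene is not counted.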

Other observations

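Some members had a transcript that starts less than 10 kb from the outer start and ends early. There were 13 such genes with a transcript under 50% of the longest. In Macrod2 it had 27520 bases and 4 exons (1.38% of the gene), in Lrrtm4 5290 bases and 2 exons (0.669%), in Cntnap5c 6523 bases and 2 exons (1.02%) and in Rora 11182 bases and 3 exons (1.52%). Lrrtm4 therefore combined the shortest early-ending transcript with a longest one of 791267 bases. These 4 were picked out with their values known.

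Members were annotated with a median of 2 transcripts and at most 30, the latter in Trpm3, and 71 had 1 (35.5%), against 43.7% of the coding genes of 100 kb to under 500 kb and 53.2% of those of 10 kb to under 100 kb.

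In 6 members the longest transcript was non-coding. Snhg14, 5730522E02Rik with 593731 bases and 6 exons, and Gm20754 with 528480 bases and 5 exons had no coding transcript. Cdkal1, a tRNA-modifying enzyme, Adarb2, a relative of RNA-editing enzymes, and Egfem1 had coding transcripts besides a longer non-coding one.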
